A study of Homo sapiens with 12 samples.

Results

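Basal gene expression was described in Ishikawa cells, an established human line of endometrial adenocarcinoma origin, from 3 Affymetrix U133 Plus 2.0 arrays of a series of 12. The 3 arrays were chosen by their title, which calls the cells non-treated, and the labels call them biological replicates without saying how the cultures were separated. The cells were not untouched: they were transfected with a negative control siRNA for 48 h and then given a control peptide for 24 h, in RPMI medium with 10% serum. The other 9 arrays, 3 in each of 3 groups, combined 10 µM metastin-10 or the control peptide with the same control siRNA or with an siRNA against GPR54, and are not described here. What the control siRNA and the control peptide consist of is not stated in the labels. No groups were compared, so no test was run and each value below is a level with its SD over 3 arrays.

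The endometrial gland arises from the Mullerian duct, whose epithelium is specified by a small set of transcription factors that stay on in the adult uterus and in most tumours of it. The gland is a simple epithelium, held together by E-cadherin junctions and claudins, built on keratins 8, 18 and 19, and regulated by oestradiol and progesterone through nuclear receptors. Ishikawa cells serve as a model of hormone-responsive glandular cancer, and metastin, the kisspeptin peptide, acts through the Gq-coupled receptor encoded by KISS1R.

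Levels are log2 RMA values of 19775 genes. Where a gene was read by several probe sets, the one with the highest mean over the 3 arrays stood for it. Its other probe sets can be dim even where this is not mentioned below. The dimmest had a mean of 2.23 for TXNRD1, 3.88 for WFDC2, 4.79 for XBP1 and 4.93 for KRT19, all below the floor defined in the next paragraph. The percentile of a gene is the share of the other genes with a lower mean, so it ranks hybridisation signal and not molecules. Probe sets differ in affinity, and in the 10523 genes with several probe sets the brightest and the dimmest differed by a median of 2.05. Gene means ran from 2.12 to 14.63 with a median of 6.43. The 90th percentile lay at 10.14 and the 99th at 12.56.

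Detection calls were not used here, so 2 reference lines were taken from genes that are not known from this tissue. The floor, 5.19, was the 95th percentile of 82 olfactory receptor genes, whose means ran from 2.31 to 5.62. The upper line, 6.67, was the 95th percentile of 27 markers of other organs, whose means ran from 3.09 to 7.36. A gene was counted above a line when it exceeded it on each of the 3 arrays. The floor was passed by 12506 genes (63.2%) and the upper line by 9201 (46.5%), leaving 3305 genes between them and 7269 not above the floor. Each count of a list or family below is to be read beside these 2 shares. Of the markers of other organs, 12 of 27 passed the floor, among them SFTPC, a lung surfactant protein (6.74 ± 0.17, SD, n = 3), so passing the floor does not show that a gene is expressed. The upper line was set from these same 27 genes, so nearly all of them lie below it by construction. KLK3, the prostate-specific antigen, was the only one above it on each array (7.36 ± 0.21). The mean of SFTPC also exceeded it, but not every array did.

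**Figure D1:**
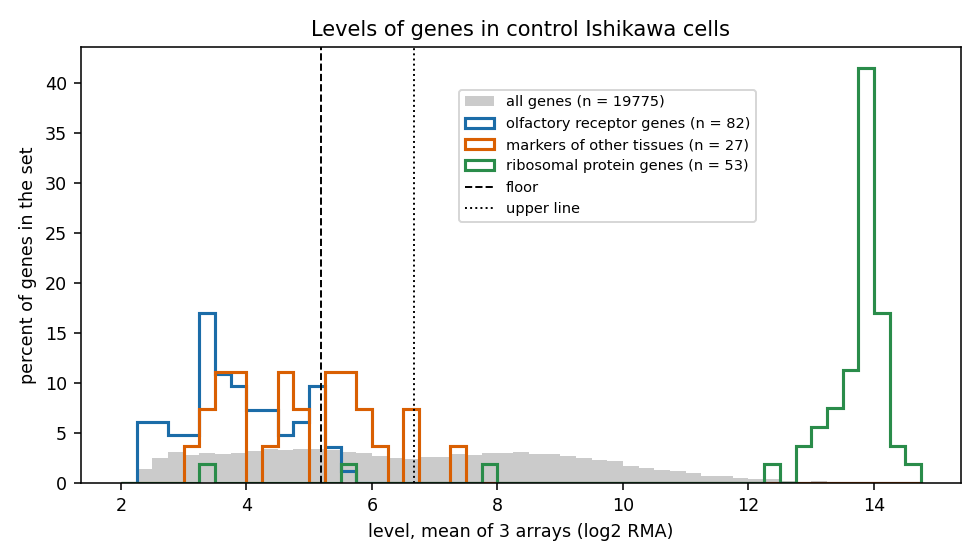
Share of genes (vertical axis, percent of each set) by mean log2 RMA level over the 3 arrays (horizontal axis) for all 19775 genes, 82 olfactory receptor genes, 27 markers of other tissues and 53 ribosomal protein genes. The dashed line is the floor at 5.19 and the dotted line the upper line at 6.67, and the ribosomal genes sit at the right end with a median of 13.85.

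The 3 arrays were close to each other. Over all genes they correlated at 0.998 (replicates 1 and 2), 0.997 (1 and 3) and 0.997 (2 and 3), and the SD of the difference between 2 arrays was 0.18, 0.19 and 0.21. The median gene had an SD of 0.10, and the SD was smaller for brighter genes, with a median of 0.12 below the 25th percentile and 0.033 in the top 1%. Replicate 3 stood apart in some measures. Its beta-actin 3′ probe set exceeded the 5′ one by 0.29, against 0.90 and 0.77 on replicates 1 and 2, and no gene differed by more than 1 between replicates 1 and 2 whereas 20 did between 1 and 3 and 15 between 2 and 3. The 3′ minus 5′ difference for GAPDH was small on all 3 arrays, at -0.004, 0.042 and -0.080 on replicates 1 to 3. Without replicate 3, 12521 genes were above the floor.

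In each of the 12 genes with the largest SD, replicate 3 was the highest or the lowest. CTSZ, the lysosomal protease cathepsin Z, read 7.99, 8.15 and 6.80 on replicates 1 to 3, and was the only one of the 12 in which replicate 3 was the lowest. In the other 11, among them the RNA helicase DHX9 (9.18, 9.21 and 10.27), the nucleophosmin-family chaperone NPM3 (7.54, 7.52 and 8.79) and the cohesin acetyltransferase ESCO2 (6.93, 7.08 and 8.15), replicate 3 was the highest.

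The brightest signals came from the translation machinery. RPL41, a protein of the large ribosomal subunit, read 14.64, 14.60 and 14.63, and the elongation factor EEF1A1 read 14.55, 14.52 and 14.57. Ribosomal proteins made up 16 of the 25 genes with the highest mean and 49 of the first 200. Of the 53 measured ribosomal protein genes 52 passed the floor and 51 the upper line, with a median of 13.85. The exceptions were RPLP2, at 5.58 ± 0.21, and RPL36A, at 3.32 ± 0.18, and RPL27A also lay far below the rest at 7.95 ± 0.22. Ribosomal protein genes have many near-identical pseudogene copies, so what each probe set reads is uncertain.

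The other genes among the 25 were GAPDH, the glycolytic dehydrogenase (14.36, 14.36 and 14.38), the actin-binding peptide TMSB10 (14.12, 14.14 and 14.18), the mitochondrially encoded cytochrome oxidase subunit COX1 (14.07, 14.15 and 14.14), the prolyl isomerase PPIA, the ubiquitin gene UBB, the growth-related protein TPT1, the cytoskeletal actin ACTB and KRT18. Keratin 18 was the only keratin in this group. Of the first 200 genes, 15 belonged to the list of the respiratory chain, 8 to glycolysis, 3 to redox enzymes, 2 to simple keratins and 2 to junction genes, and 0 to DNA replication and mitosis. Of the 546 probe sets that form the brightest 1%, 149 had no single gene in the annotation and are not named.

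Promoters of genes at both ends of the range are shown to let the sequence be read beside the level. They are the 250 bases before and 50 after the annotated start in RefSeq, assembly GRCh38.p14, written 5′ to 3′ on the strand of the gene. RPL41 (chr12:56116383-56116682, plus strand) and RPS16 (chr19:39435900-39436199, minus strand) are among the 25 brightest genes, PAX8 (chr2:113278872-113279171, minus strand) and EMX2 (chr10:117542496-117542795, plus strand) are the Mullerian factors described next, and KRT20 (chr17:40885193-40885492, minus strand), an intestinal keratin, read 2.66 ± 0.09. Capitals mark matches, on either strand, to the TATA box letters TATAAA, to the CCAAT box, to the SP1-type GGGCGG, to the pyrimidine stretch CTTTC, to the ETS-type CCGGAAG, to the E-box CACGTG or to the palindrome of the factor NRF1. A match on the other strand appears as its reverse complement.
RPL41: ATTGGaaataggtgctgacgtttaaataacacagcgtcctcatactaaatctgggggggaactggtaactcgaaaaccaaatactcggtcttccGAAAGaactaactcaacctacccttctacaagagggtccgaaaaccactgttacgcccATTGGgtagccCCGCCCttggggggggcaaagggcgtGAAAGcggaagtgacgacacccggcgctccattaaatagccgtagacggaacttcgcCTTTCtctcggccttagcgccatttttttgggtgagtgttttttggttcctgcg
RPS16: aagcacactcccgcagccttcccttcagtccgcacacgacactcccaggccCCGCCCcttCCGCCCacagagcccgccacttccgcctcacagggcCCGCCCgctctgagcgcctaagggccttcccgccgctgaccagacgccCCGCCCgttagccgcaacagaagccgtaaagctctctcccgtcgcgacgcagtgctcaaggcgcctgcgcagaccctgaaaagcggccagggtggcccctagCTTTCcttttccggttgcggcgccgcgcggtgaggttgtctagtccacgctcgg
PAX8: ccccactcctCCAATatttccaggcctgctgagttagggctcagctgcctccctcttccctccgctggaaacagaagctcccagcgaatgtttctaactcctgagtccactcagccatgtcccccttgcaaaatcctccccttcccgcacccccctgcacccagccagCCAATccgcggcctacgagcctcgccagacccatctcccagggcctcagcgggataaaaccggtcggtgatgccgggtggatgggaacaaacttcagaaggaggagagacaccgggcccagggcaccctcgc
EMX2: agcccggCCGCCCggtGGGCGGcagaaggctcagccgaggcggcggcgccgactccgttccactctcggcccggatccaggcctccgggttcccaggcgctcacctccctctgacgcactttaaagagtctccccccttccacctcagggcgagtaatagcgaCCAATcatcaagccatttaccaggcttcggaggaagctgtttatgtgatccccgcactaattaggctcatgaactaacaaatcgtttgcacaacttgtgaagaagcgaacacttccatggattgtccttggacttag
KRT20: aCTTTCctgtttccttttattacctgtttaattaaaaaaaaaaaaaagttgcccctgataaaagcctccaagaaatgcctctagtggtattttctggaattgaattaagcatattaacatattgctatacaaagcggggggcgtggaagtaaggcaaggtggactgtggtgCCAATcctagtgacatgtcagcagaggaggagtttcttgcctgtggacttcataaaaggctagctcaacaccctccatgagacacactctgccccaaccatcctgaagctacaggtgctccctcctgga
The CpG ratio, observed over expected from the base composition, was 0.974 for RPL41, 0.962 for RPS16, 0.483 for PAX8, 0.846 for EMX2 and 0.138 for KRT20. The RPL41 window held 3 CTTTC matches, 2 CCAAT matches and 1 GGGCGG match, the RPS16 window 4 GGGCGG matches and 1 CTTTC match, and the PAX8 window 2 CCAAT matches. EMX2 had 2 GGGCGG matches and 1 CCAAT match, and KRT20 1 match each to CCAAT and CTTTC.

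Of 14 measured transcription factors that mark the Mullerian lineage, 7 were above the floor and 6 above the upper line (50% and 42.9%, beside 63.2% and 46.5% of all genes), so the list as a whole did not stand out. PAX8, a paired-box factor of Mullerian, thyroid and renal epithelium, read 10.80, 10.87 and 10.78 (94th percentile), and all 8 of its probe sets passed the floor, from 6.84 to 10.82. SOX17, a SRY-box factor of the endometrial gland, read 10.93, 10.89 and 10.86. EMX2, a homeobox factor needed for the uterine tract, read 10.62, 10.80 and 10.33. All 3 factors were above the 90th percentile on every array.

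MSX1, a homeobox factor of the uterine epithelium, read 11.55, 11.70 and 11.36, and the zinc-finger factor MECOM read 10.76, 10.91 and 10.94. GATA2 lay near the middle of all genes (7.09 ± 0.10, percentile 56.7), and FOXA1, the pioneer factor of oestrogen-responsive tissues, between the lines (6.40 ± 0.05). The members not above the floor were FOXA2, the factor of endometrial glands (4.74 ± 0.08), PAX2 (4.56 ± 0.20), WT1 (4.56 ± 0.27), GATA3 (4.12 ± 0.13), GATA6 (4.90 ± 0.26), MSX2 (5.10 ± 0.11) and LHX1 (5.22 ± 0.16). LHX1 exceeded the floor only on replicate 3, where it read 5.40.

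The general epithelial factors were above the upper line in 10 of 11 cases, with a median of 8.49. ESRP1, which directs epithelial splicing, read 10.90, 11.09 and 10.9996, and the ETS factor EHF read 10.66, 10.81 and 10.63. GRHL2, the grainyhead factor that maintains E-cadherin expression, read 9.83, 9.94 and 9.76. All 3 lay above the 87th percentile with an SD of 0.10 or less. The factors KLF5 (8.997 ± 0.28), GRHL1 (8.67 ± 0.05), ELF3 (8.49 ± 0.05), OVOL2 (8.40 ± 0.11), SOX9 (7.72 ± 0.39), KLF4 (7.13 ± 0.07) and OVOL1 (7.05 ± 0.02) followed. Only GRHL3, of stratified epithelium, was not above the floor (3.68 ± 0.08).

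**Figure D2:**
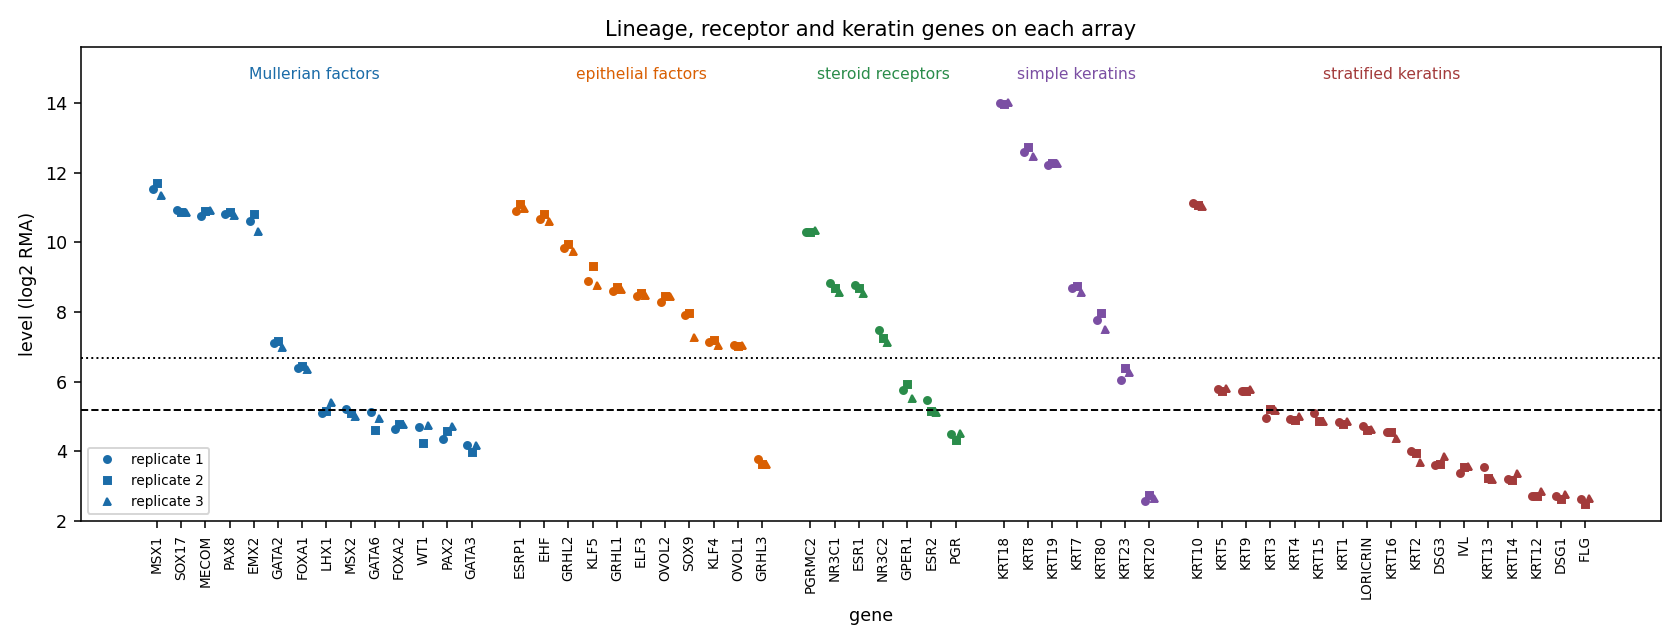
Level on each array (vertical axis, log2 RMA) of the measured Mullerian factors, epithelial factors, steroid receptors, simple keratins and stratified keratins (horizontal axis, genes in order of mean within a list); circles, squares and triangles are replicates 1, 2 and 3. The dashed line is the floor and the dotted line the upper line; PAX8, SOX17, MECOM, MSX1 and EMX2 stand above 10 on all 3 arrays, and 14 of the 17 stratified keratin genes are not above the floor.

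Steroid receptors were unevenly represented. ESR1, the oestrogen receptor alpha, read 8.79, 8.69 and 8.53 (percentile 75.3), while ESR2, the beta receptor, read 5.47, 5.15 and 5.13 and PGR, the progesterone receptor, 4.49, 4.34 and 4.53. ESR1 was above the upper line on all arrays, ESR2 above the floor on replicate 1 only, and PGR below it on all. The ESR1 level was that of the brightest of 9 probe sets. The other 8 had means of 3.24 to 5.87, of which 3 passed the floor and none the upper line, and the dimmer of 2 PGR probe sets had a mean of 2.78.

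The glucocorticoid receptor NR3C1 read 8.82, 8.70 and 8.58, and the mineralocorticoid receptor NR3C2 read 7.49, 7.26 and 7.13. PGRMC2, a membrane haem-binding protein of progesterone signalling, read 10.30, 10.29 and 10.36, and the membrane oestrogen receptor GPER1 lay between the lines at 5.74 ± 0.20. In all, 5 of 7 measured members passed the floor and 4 the upper line (71.4% and 57.1%, beside 63.2% and 46.5% of all genes).

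Of the 30 measured other nuclear receptors 22 passed the floor and 14 the upper line (73.3% and 46.7%, beside 63.2% and 46.5% of all genes). The orphan receptor NR2F6 had the highest mean (10.997 ± 0.11), followed by the lipid sensor PPARD (9.37 ± 0.09), NR2C2 (8.99 ± 0.07), the oestrogen-related receptor ESRRA (8.55 ± 0.14), the clock receptor NR1D2 (8.21 ± 0.05) and RXRA (8.04 ± 0.06). The vitamin D receptor VDR (6.87 ± 0.25) and PPARG (6.69 ± 0.05) each read below the upper line on 1 array. The steroidogenic factors NR5A1 (4.64 ± 0.20) and NR5A2 (3.30 ± 0.07) were not above the floor. Of the 9 coregulators 8 passed both lines, with NCOA4 at 11.77 ± 0.07, NRIP1, a corepressor induced by oestrogen, at 9.81 ± 0.10 and MED1 at 9.15 ± 0.07. PPARGC1B (4.78 ± 0.12) did not.

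Of the genes known to respond to oestrogen or progesterone, 16 of 28 passed the floor and 11 the upper line. These shares, 57.1% and 39.3%, lay below those of all genes, 63.2% and 46.5%. SCGB2A1, a secretoglobin of the endometrium, read 10.94, 10.997 and 11.12. STC1, the glycoprotein hormone stanniocalcin 1, read 10.60, 10.63 and 10.66, and XBP1 read 10.11, 10.05 and 10.08. SCGB1D2 (7.30 ± 0.06) and SCGB1D1 (7.07 ± 0.04), which encode other secretoglobins, were also above the upper line.

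The oestrogen-induced gene GREB1 was below the floor on all 3 arrays (4.90, 5.07 and 4.49), as was TFF1 (3.98, 3.59 and 4.06). The decidual products IGFBP1 (3.12 ± 0.16) and PRL (4.27 ± 0.27), the secretory-phase glycoprotein PAEP (4.70 ± 0.20) and the placental phosphatase gene ALPP (4.16 ± 0.12) were not above the floor either. Among the glucocorticoid and progestin targets, FKBP5 lay at 8.47 ± 0.07, whereas ZBTB16 lay at 3.32.

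Of 26 measured genes of steroid synthesis and inactivation 17 passed the floor and 15 the upper line. The shares were 65.4% and 57.7%, beside 63.2% and 46.5% of all genes. Among the enzymes that reduce or oxidise steroids, AKR1C3 read 11.55, 11.52 and 11.57, AKR1C1 10.52, 10.46 and 10.55, and AKR1C2 10.45, 10.46 and 10.59. The AKR1C genes are near-identical copies, so their probe sets cannot be fully told apart. HSD17B10 (10.85 ± 0.06), HSD17B4 (10.78 ± 0.04), HSD17B12 (9.75 ± 0.06) and HSD17B1, which makes oestradiol from oestrone (8.08 ± 0.10), were above the upper line, and so was the phenol sulphotransferase SULT1A1 (10.33 ± 0.02). Only 1 of 2 probe sets of HSD17B4 and 1 of 4 of HSD17B12 had a mean above the floor.

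These genes of steroid synthesis from cholesterol were not above the floor: STAR (3.55 ± 0.18), CYP11A1 (4.15 ± 0.20), CYP17A1 (4.77 ± 0.14), HSD3B1 (3.21 ± 0.08), HSD3B2 (2.88 ± 0.16) and the aromatase CYP19A1 (4.61 ± 0.11, none of 7 probe sets above the floor). HSD17B2 (3.32 ± 0.24) and SULT1E1 (2.72 ± 0.18), which inactivate oestradiol in the secretory endometrium, were also below it. The oestrogen hydroxylases CYP1A1 (8.80, 8.95 and 8.91) and CYP1B1 (8.71, 8.66 and 8.76) were above the upper line on all arrays. The glucocorticoid-converting enzymes HSD11B2 (6.05 ± 0.08) and HSD11B1 (3.80) lay between the lines and below the floor.

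The receptor of the peptide that the study used was present in signal and its ligand was not. KISS1R, which encodes GPR54, read 9.39, 9.32 and 9.14 (percentile 82.3) with its single probe set, and KISS1 read 4.21, 4.21 and 4.36. All 3 arrays had KISS1R above the upper line and KISS1 below the floor. The Gq-class subunits GNAQ (9.98 ± 0.07) and GNA11 (9.10 ± 0.11) and the phospholipase PLCB1 (9.94 ± 0.05), which act below this receptor, were above the upper line, and PLCB3 lay between the lines (6.43 ± 0.18). GNRH1 (3.34 ± 0.23), its receptor GNRHR (3.49 ± 0.15) and the RFamide receptor NPFFR2 (3.53 ± 0.29) were not above the floor, while NPFFR1 was (5.66 ± 0.06). Of the 17 measured members of this list 10 passed the floor and 5 the upper line. These shares, 58.8% and 29.4%, lay below those of all genes, 63.2% and 46.5%.

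Among 31 hormone and lipid receptors at the membrane, 18 passed the floor and 12 the upper line. These shares, 58.1% and 38.7%, lay below those of all genes, 63.2% and 46.5%. The adiponectin receptors ADIPOR2 (9.93 ± 0.04) and ADIPOR1 (9.75 ± 0.09), the mannose-6-phosphate receptor IGF2R (9.76 ± 0.24) and the R-spondin receptor LGR4 (9.34 ± 0.11) had percentiles between 82.8 and 88.4. INSR, the insulin receptor, read 8.72, 8.78 and 8.12, and IGF1R read 7.85, 7.78 and 7.29, both lowest on replicate 3. The lysophosphatidic acid receptors LPAR2 (8.37 ± 0.01) and LPAR3 (8.24 ± 0.05), the thrombin receptor F2R (7.96 ± 0.06) and the chemokine receptor CXCR4 (7.59 ± 0.17) were above the upper line. The gonadotrophin receptors FSHR (2.92 ± 0.04) and LHCGR (2.60 ± 0.19), the prostaglandin F receptor PTGFR (2.84 ± 0.15), the leptin receptor LEPR (3.27 ± 0.18) and the stem cell marker LGR5 (4.14 ± 0.18) were not above the floor.

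Of 28 receptor tyrosine kinases 21 passed the floor and 14 the upper line (75% and 50%, beside 63.2% and 46.5% of all genes). The hepatocyte growth factor receptor MET read 10.40, 10.46 and 10.34, and FGFR3 read 10.08, 10.15 and 9.85. All 4 ERBB receptors were above the upper line, with ERBB2 at 9.36, 9.45 and 9.36, ERBB3 at 9.10 ± 0.14, EGFR at 8.31 ± 0.18 and ERBB4 at 8.06 ± 0.11. EPHB4 (8.61 ± 0.20), EPHA2 (8.47 ± 0.10), FGFR2 (8.45 ± 0.05), FGFR1 (8.01 ± 0.21) and KIT (7.04 ± 0.11) were above it as well. The receptors of mesenchyme and vessels PDGFRA (4.32 ± 0.04), PDGFRB (4.99 ± 0.10), KDR (2.91 ± 0.07) and ROR2 (2.86 ± 0.03) were not above the floor.

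Receptors of the TGF-beta, BMP, Notch and Wnt pathways passed the floor in 21 of 22 cases and the upper line in 18. NOTCH2 read 10.53, 10.51 and 10.21, the Wnt receptor FZD6 10.40, 10.39 and 10.46, and TGFBR2 10.29, 10.47 and 10.29. FZD2 (9.99 ± 0.01), BMPR2 (9.92 ± 0.14) and the Wnt coreceptor LRP6 (9.78 ± 0.05) were also above the 87th percentile. NOTCH4, the Notch receptor of endothelium, was the only member not above the floor (5.01 ± 0.22).

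Of 38 growth factor ligands 26 passed the floor and 14 the upper line (68.4% and 36.8%, beside 63.2% and 46.5% of all genes). VEGFA, the angiogenic factor, read 11.35, 11.41 and 11.16, the Notch ligand JAG1 11.07, 11.07 and 10.86, and the heparin-binding factor MDK 10.23, 10.35 and 10.57. PDGFA (9.56 ± 0.22), JAG2 (8.86 ± 0.17), WNT5A (8.83 ± 0.15), WNT7A, the Wnt of uterine luminal epithelium (8.54 ± 0.14), the EGFR ligand TGFA (8.24 ± 0.15) and BMP7 (7.95 ± 0.12) were above the upper line. The EGFR ligands EGF (5.22 ± 0.12) and EREG (4.04 ± 0.02), the MET ligand HGF (5.03), BMP2 (3.20 ± 0.14) and the inhibin subunit INHA (3.84 ± 0.19) were not above the floor.

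Keratins showed the pattern of a simple epithelium. KRT18 read 13.99, 13.97 and 14.03, its partner KRT8 12.59, 12.73 and 12.48, and KRT19 12.23, 12.28 and 12.27. These 3 genes were at or above percentile 98.5. KRT7, the keratin used in pathology to separate gynaecological from intestinal tumours, read 8.69, 8.74 and 8.58, and KRT20 read 2.57, 2.75 and 2.67. Of the 7 keratins of simple epithelia 6 passed the floor and 5 the upper line. Set against the label of an endometrial cancer line, KRT8, KRT18 and KRT19 were bright, and the Mullerian factors were split. PAX8, SOX17, EMX2, MSX1 and MECOM were bright, but 7 of the 14 measured factors, FOXA2 among them, were not above the floor. Genes linked to oestrogen and progesterone were split too. ESR1, SCGB2A1, STC1 and XBP1 were above the upper line, and PGR and PAEP were not above the floor.

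Among 17 genes of stratified squamous epithelium, 3 passed the floor and 1 the upper line. That gene, the suprabasal keratin KRT10, read 11.13, 11.08 and 11.05, with all 3 of its probe sets at 10.96 or more. The basal keratin KRT5 lay between the lines (5.78 ± 0.05) and its partner KRT14 was not above the floor (3.25 ± 0.12), nor were the envelope genes IVL (3.51), FLG (2.59) and LORICRIN (4.66).

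Adherens, tight and desmosomal junction genes passed the floor in 29 of 34 cases and the upper line in 24. EPCAM, the epithelial adhesion molecule, read 13.12, 13.12 and 13.08, CDH1, which encodes E-cadherin, 12.27, 12.25 and 12.18, and CTNNB1, which encodes beta-catenin, 12.46, 12.47 and 12.43. CDH2, which encodes N-cadherin, read 11.15, 11.28 and 10.99, and its second probe set had a mean of 9.81. E-cadherin and N-cadherin were thus both above percentile 95 on this scale. CTNNA1 (12.58 ± 0.05), the desmosomal genes DSP (11.95 ± 0.14), DSG2 (11.35 ± 0.04) and JUP (10.65 ± 0.12), and P-cadherin, CDH3 (10.18 ± 0.15), were also bright.

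The claudins, which set the permeability of tight junctions, differed between members. CLDN7 (10.97 ± 0.13), CLDN3 (10.19 ± 0.08), CLDN4 (9.78 ± 0.16), CLDN12 (9.14 ± 0.04) and CLDN1 (8.96 ± 0.12) were above the upper line, as were OCLN (10.35 ± 0.10) and the scaffold TJP1 (10.09 ± 0.14). CLDN8 (2.82 ± 0.09), CLDN10 (3.72 ± 0.13), CLDN18 (4.16 ± 0.16) and CLDN2 (4.42) were not above the floor.

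Of 15 mesenchymal genes 7 passed the floor and 6 the upper line (46.7% and 40%, beside 63.2% and 46.5% of all genes). The transcription factors linked to repression of E-cadherin were split. SNAI1 (4.81 ± 0.09), SNAI2 (2.73 ± 0.07), ZEB1 (4.01 ± 0.28) and ZEB2 (3.32 ± 0.04) were below the floor on every array, but TWIST1 read 8.31, 8.40 and 8.03. TWIST2 had a mean of 6.84 with the brighter of its 2 probe sets and 3.83 with the other. The matrix glycoprotein TNC (9.86 ± 0.18), S100A4 (9.37 ± 0.03), the intermediate filament VIM (8.56 ± 0.07) and fibronectin, FN1 (8.43 ± 0.13), were above the upper line. For TNC and VIM this rested on a single probe set of 3 and of 2.

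Of 19 integrin subunits 14 passed the floor and 9 the upper line (73.7% and 47.4%, beside 63.2% and 46.5% of all genes). ITGB1, the common beta chain, had a mean of 12.60 ± 0.08, but only 3 of its 7 probe sets passed the floor. ITGAV (11.33 ± 0.15), ITGAE (10.93 ± 0.02), ITGB8 (9.85 ± 0.16), ITGB5 (9.53 ± 0.06) and ITGA6 (8.93 ± 0.15) were bright. ITGB3, an integrin of the implantation window, lay between the lines (6.30, 6.33 and 6.70).

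Secreted and surface proteins of glandular epithelium passed the floor in 18 of 29 cases and the upper line in 12. These shares, 62.1% and 41.4%, lay slightly below those of all genes, 63.2% and 46.5%. The protease inhibitor SLPI read 11.47, 11.48 and 11.52, and WFDC2, which encodes the tumour marker HE4, read 10.69, 10.67 and 10.56. CD24 (10.06 ± 0.02), the folate receptor FOLR1 (9.94 ± 0.13), PROM1, which encodes CD133 (9.46 ± 0.05), and LCN2 (9.35 ± 0.12) followed. Among mucins MUC20 (8.53 ± 0.08) and MUC1 (7.85 ± 0.08) were above the upper line, whereas MUC16, which encodes CA125 (4.14 ± 0.21), MUC4 (4.83 ± 0.17) and MSLN (3.32 ± 0.19) were not above the floor.

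Ciliated cells occur in normal endometrial epithelium. FOXJ1, their master transcription factor, read 7.38, 7.66 and 7.37, and the calcium-binding protein CAPS read 10.50, 10.49 and 10.46. The axonemal genes RSPH4A (3.14 ± 0.06) and DNAI1 (4.77 ± 0.18) were not above the floor. Of 14 members of the list 8 passed the floor and 5 the upper line. These shares, 57.1% and 35.7%, lay below those of all genes, 63.2% and 46.5%.

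After the ribosomal proteins, the respiratory chain and ATP synthase had the highest median of the 40 lists, 12.06, and 33 of 37 members passed the floor. COX7C read 13.60, 13.66 and 13.61, and ATP5F1A, the alpha subunit of ATP synthase, 13.52, 13.39 and 13.51. Several subunits exist as a common form and a form restricted to certain tissues. COX4I1 (13.16 ± 0.01), COX6A1 (13.22 ± 0.04), COX7A2 (13.24 ± 0.06), COX6B1 (12.32 ± 0.02), COX7B (12.61 ± 0.11) and COX8A (12.73 ± 0.01) were all above the 98th percentile. The lung, muscle or testis forms were COX4I2 (5.61 ± 0.12), COX6A2 (5.06 ± 0.13), COX7A1 (4.69 ± 0.06), COX6B2 (5.40 ± 0.04), COX7B2 (3.32 ± 0.04) and COX8C (2.75 ± 0.15), of which COX4I2 and COX6B2 passed the floor. COXFA4L2, a relative of COXFA4 (12.56 ± 0.03), was above the upper line at 7.40 ± 0.09.

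Of the 29 measured genes of glucose uptake, glycolysis and lactate 23 passed the floor and 21 the upper line. GAPDH, LDHA (13.72, 13.73 and 13.74), ENO1 (13.54, 13.50 and 13.52), ALDOA (13.49 ± 0.05) and PGK1 (13.24 ± 0.01) had percentiles of 99.5 or more. LDHB, the heart-type subunit of lactate dehydrogenase, read 13.09, 13.10 and 13.10. GPI (12.49 ± 0.09) and PKM (12.54 ± 0.18) were near percentile 99. At the committing steps, PFKP lay at 10.59 ± 0.17, PFKM at 9.69 ± 0.02 and PFKL at 8.41 ± 0.06, and the hexokinases HK1 at 9.96 ± 0.12 and HK2 at 9.91 ± 0.26.

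Of the glucose transporters SLC2A1 read 9.18, 9.14 and 9.09, while SLC2A3 (4.10 ± 0.13), SLC2A4 (4.02) and SLC2A2 (2.52) were not above the floor. The liver form of pyruvate kinase, PKLR (4.75 ± 0.05), and the testis form of lactate dehydrogenase, LDHC (5.08 ± 0.05), were not above it either. Among other forms found mainly in certain tissues, ALDOC (9.05 ± 0.11) and ENO2 (7.80) were above the upper line, and ENO3 (6.46 ± 0.10) and HK3 (5.49) lay between the lines.

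Of 15 measured genes of glycogen and gluconeogenesis 10 passed the floor and 9 the upper line. The shares were 66.7% and 60%, beside 63.2% and 46.5% of all genes. The brightest were PGM1 (10.93 ± 0.03), the branching enzyme GBE1 (10.88 ± 0.03) and UGP2 (10.68 ± 0.10). The phosphorylases PYGL (8.70 ± 0.06) and PYGB (7.75 ± 0.04) and the synthase GYS1 (8.04) were above the upper line. The synthase GYS2 (2.60) and the phosphorylase PYGM (4.74) were not above the floor. The gluconeogenic genes G6PC1 (3.90 ± 0.03) and PCK1 (2.78 ± 0.26) were not above the floor, although the mitochondrial form PCK2 was (8.73 ± 0.19). In the pentose phosphate pathway TALDO1 (12.75 ± 0.05), TKT (12.19 ± 0.10) and PGD (11.78 ± 0.11) had percentiles above 97, and 6 of 7 members passed both lines. TKTL1 (4.81 ± 0.07) did not.

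Of the genes of pyruvate entry and the tricarboxylic acid cycle, 30 of 31 passed the floor and 28 the upper line, with a median of 10.23. MDH1 (12.45 ± 0.06), IDH1 (12.36 ± 0.06) and citrate synthase, CS (11.51 ± 0.17), were bright. Pyruvate carboxylase, PC, which refills the cycle, lay at 6.94 ± 0.07. The kinases that switch off pyruvate dehydrogenase were PDK1 at 8.99 ± 0.15, PDK3 at 8.91 ± 0.07, PDK2 at 7.42 ± 0.06 and PDK4 between the lines at 6.56 ± 0.02. The testis subunit PDHA2 was the only member not above the floor (3.83 ± 0.07).

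**Figure D3:**
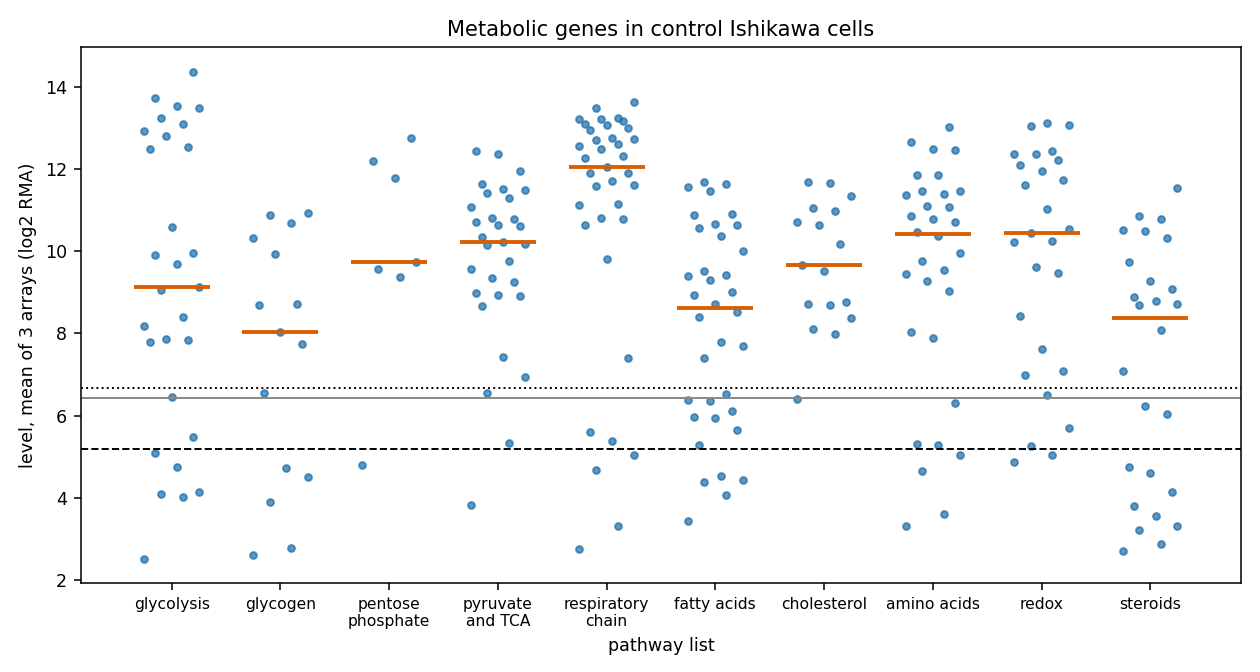
Mean level over the 3 arrays (vertical axis, log2 RMA) of each measured gene in 10 metabolic lists (horizontal axis); each point is a gene, the orange bar the median of a list and the grey line the median of all genes, 6.43. The dashed line is the floor and the dotted line the upper line; the respiratory chain has the highest median, 12.06.

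Of 36 measured genes of fatty acid synthesis, storage and oxidation 31 passed the floor and 23 the upper line. The shares were 86.1% and 63.9%, beside 63.2% and 46.5% of all genes. Some enzymes of synthesis were bright, but ACACB (7.70) and DGAT2 (6.35) were lower. Enzymes of oxidation such as HADHB (10.91) and ACADVL (10.63) were bright too, and several genes of uptake were not above the floor. SCD, the stearoyl desaturase, read 11.73, 11.87 and 11.47, its relative SCD5 11.51, 11.63 and 11.29, and ACLY, the citrate lyase, 11.52, 11.67 and 11.46. FASN, the fatty acid synthase, read 9.24, 9.69 and 8.98 and varied more between arrays than the median gene. The uptake genes CD36 (4.08 ± 0.02), LPL (4.53 ± 0.25) and FABP4 (3.43 ± 0.07) were not above the floor, whereas FABP5 was bright (10.36 ± 0.09), as was CPT1A, the entry enzyme of mitochondrial oxidation (10.01 ± 0.14).

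All 17 measured genes of cholesterol synthesis and uptake passed the floor and 16 the upper line. FDPS read 11.63, 11.71 and 11.73 and MSMO1 11.63, 11.72 and 11.62. INSIG1, the sterol sensor partner, lay at 11.35 ± 0.06, SQLE at 9.52 ± 0.13 and HMGCS1 at 9.66 ± 0.11. MVD was the one below the upper line (6.41 ± 0.09).

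In amino acid metabolism ODC1, the rate-limiting enzyme of polyamine synthesis, read 13.02 on all 3 arrays. ASS1, which makes argininosuccinate, read 12.62, 12.70 and 12.64, and PSAT1, of serine synthesis, 12.47, 12.55 and 12.43. The mitochondrial one-carbon enzymes MTHFD2 (12.46 ± 0.07) and SHMT2 (11.85 ± 0.06) were above percentile 97, but the cytosolic SHMT1 (5.04 ± 0.18) and the mitochondrial MTHFD1L (3.33 ± 0.04) were not above the floor. The cystine transporter SLC7A11 lay at 11.07 ± 0.08 and PHGDH at 9.97 ± 0.01. ASNS, at 11.47 ± 0.08, rested on 1 of 2 probe sets, the other having a mean of 2.66. Of 32 members 27 passed the floor and 25 the upper line.

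Redox enzymes passed the floor in 25 of 27 cases and the upper line in 22. PRDX1 (13.06, 13.08 and 13.22) and SOD1 (12.99, 13.01 and 13.14) were above percentile 99. The targets of NRF2 were split. TXNRD1 (12.23 ± 0.07), NQO1 (11.96 ± 0.06) and the glutathione transferase GSTP1 (12.09 ± 0.01) were at or above percentile 98, whereas HMOX1 lay between the lines (5.71 ± 0.13). The glutathione peroxidase GPX2 had a mean of 4.88, with neither of its 2 probe sets above the floor. ALDH1A1, a retinaldehyde dehydrogenase used as a marker of tumour-initiating cells, read 10.37, 10.42 and 10.86.

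All 35 measured genes of DNA replication, mitosis and G1 control passed the floor and 32 the upper line, with a median of 10.09. RRM2 read 12.39, 12.37 and 12.50, PCNA 12.44, 12.34 and 12.46, and CCNB1 12.04, 12.13 and 12.14. The G1 genes were CCND1 at 11.44, 11.39 and 10.93, CDK4 at 11.66 ± 0.04, MYC at 10.09 ± 0.12 and CCNE1 at 9.40 ± 0.06. The inhibitor CDKN2A, which encodes p16, read 11.41, 11.53 and 11.53, and RB1, its downstream partner, read 6.98, 7.20 and 7.17. CDKN2A was thus at percentile 96.7 and RB1 at percentile 57.1. CCND2 lay between the lines (6.22 ± 0.22).

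Of 18 measured genes often altered in endometrial cancer all passed the floor and 17 the upper line, MTOR being the exception (6.86 ± 0.19, with 1 array at 6.64). ARID1A, a chromatin remodeller, lay at 9.22 ± 0.16, ARID5B at 9.47 ± 0.12, CTCF at 9.23 ± 0.07, FBXW7 at 7.47 ± 0.20 and APC at 8.50 ± 0.09. A level says nothing about whether the gene carries a mutation. The mismatch repair gene MSH6 lay at 9.30 ± 0.06 and the DNA methyl repair gene MGMT at 9.02 ± 0.04, and 8 of 9 members of that list passed both lines. The meiotic MSH4 did not (2.94 ± 0.22).

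Stem cell and germ line genes were mostly dim, with 6 of 14 above the floor and 3 above the upper line. The latter were CD44 (10.58 ± 0.04) and the tumour antigens MAGEC1 (8.92, 8.91 and 8.81) and PRAME (7.54, 7.53 and 7.63). TERT (5.55 ± 0.08) and SOX2 (5.35 ± 0.17) lay between the lines, and LIN28B (2.90 ± 0.31) and DAZL (2.52 ± 0.12) were not above the floor.

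Of 19 genes of antigen presentation 9 passed both lines (47.4%, beside 63.2% of all genes at the floor and 46.5% at the upper line). B2M read 12.26, 12.17 and 12.22, HLA-C 10.60, 10.69 and 10.62, and HLA-B 10.43, 10.51 and 10.50. HLA genes share sequence, so these probe sets may read one another. The immunoproteasome subunit PSMB10 (7.07 ± 0.18), the peptide-loading factor TAPBP (7.71 ± 0.17) and HLA-DMA (7.52 ± 0.09) were above the upper line. The peptide transporters TAP1 (5.29, 4.97 and 5.11) and TAP2 (5.08, 4.95 and 5.08) and the other immunoproteasome subunits PSMB8 (3.71 ± 0.19) and PSMB9 (3.85 ± 0.08) were not above the floor. The class I activator NLRC5 (4.15 ± 0.18), the class II activator CIITA (4.63 ± 0.03) and HLA-DRA (4.10 ± 0.02) were not either.

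Interferon response genes passed the floor in 13 of 20 cases and the upper line in 7. The shares were 65% and 35%, beside 63.2% and 46.5% of all genes. ISG15 read 8.89, 8.99 and 9.03 and IFIT1 8.43, 8.47 and 8.52, while OAS1 (3.79 ± 0.10) and MX1 (4.01 ± 0.12) were below the floor on every array. Among sensors of RNA, RIGI (7.40 ± 0.06) and EIF2AK2 (8.70 ± 0.13) were above the upper line, and IFIH1 (2.66 ± 0.14) and TLR3 (2.56 ± 0.14) were not above the floor.

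Markers of other cell types of the uterus were mostly not above the upper line. Of 10 leukocyte markers 0 passed the floor, with PTPRC, which encodes CD45, at 3.45 ± 0.06. Of 9 endothelial markers 4 passed the floor and 1 the upper line, VWF (6.92 ± 0.11), while CDH5 lay at 3.46 ± 0.11. Of 7 smooth muscle markers 6 passed the floor but 1 the upper line, SMTN (7.01 ± 0.16). Of 12 stromal markers 4 passed the floor and 1 the upper line. The latter was COL1A1, which read 9.89, 10.27 and 9.71, with 4 of its 5 probe sets above the floor, while its partner chain COL1A2 read 4.83, 4.79 and 4.77 and the fibroblast markers DCN (5.13 ± 0.14), LUM (2.53 ± 0.34) and COL3A1 (3.95 ± 0.25) were not above the floor.

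**Figure D4:**
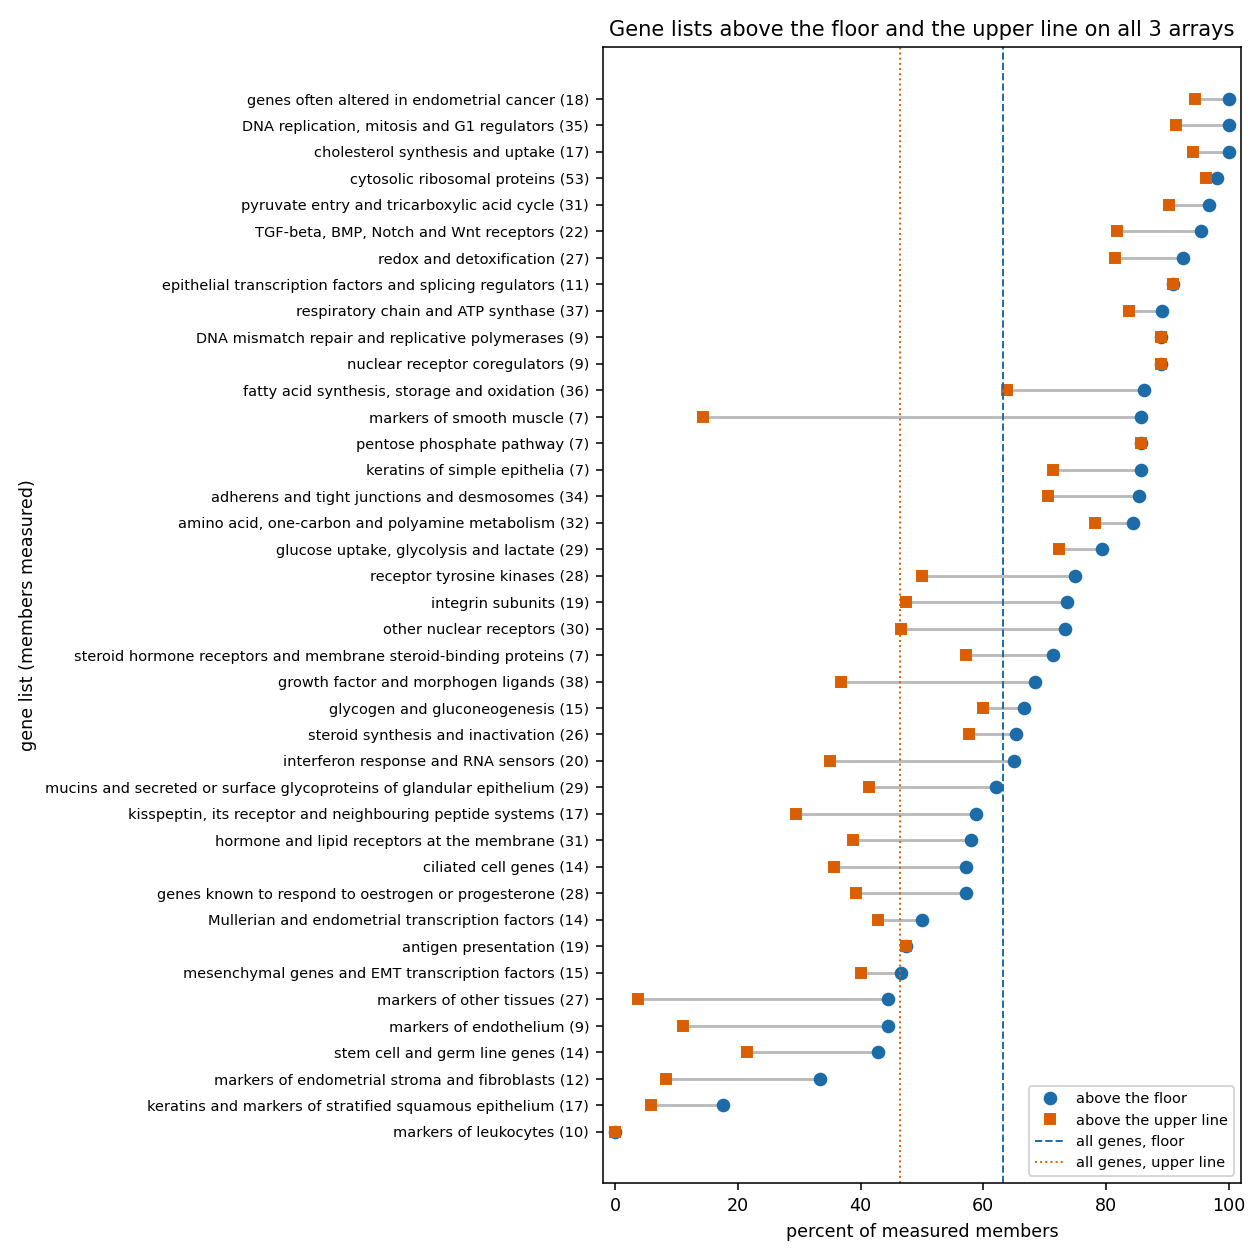
Percent of the measured members of each of 40 gene lists (vertical axis, number measured in parentheses) that exceeded the floor (blue circles) and the upper line (orange squares) on all 3 arrays. The dashed and dotted lines mark all genes, 63.2% and 46.5%; leukocyte markers stand at 0, and the lists of replication, cholesterol and endometrial cancer genes have all members above the floor.

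Promoters with a high CpG ratio made up a larger share of the brighter classes. Of 16521 measured protein-coding genes, 13456 (81.4%) had a promoter in the RefSeq table. A CpG ratio over 0.6 was found in 70.4% of these, in 86.3% of the 6089 genes above the upper line but below the top 10%, in 90.7% of the 1527 genes from there to the top 1%, and in 91.0% of the 166 genes in the top 1% (Wilson 95% interval 85.6% to 94.4%, counting error only). Genes at or below the floor, and those between the lines, had a promoter in under 80% of cases, so the check is void for them. Over all 27305 promoters of the table, measured or not, the share was 48.9%.

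Motif shares differed in their course. CCGGAAG occurred in 15.3% of promoters of measured coding genes and in 21.0%, 23.3% and 23.5% of the 3 brighter classes in order, beside 10.7% of the whole table. TATAAA occurred in 8.28% of all measured, in 4.35% and 5.70% of the next 2 classes and in 12.05% of the top 1%. CTTTC occurred in 51.5% of all measured, in 49.5% and 51.4% of those classes and in 60.8% of the top 1%. Of the 47 ribosomal protein promoters in the table, 46 had a CpG ratio over 0.6, 37 held CTTTC and 17 held CCGGAAG. In the whole table TATAAA occurred in 11.95% of promoters, CCAAT in 35.7%, GGGCGG in 44.6%, CTTTC in 54.9%, CACGTG in 7.43% and the NRF1 palindrome in 1.36%. A match is a description of letters within 300 bases and not a bound site, and overlapping matches were each counted.

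**Figure D5:**
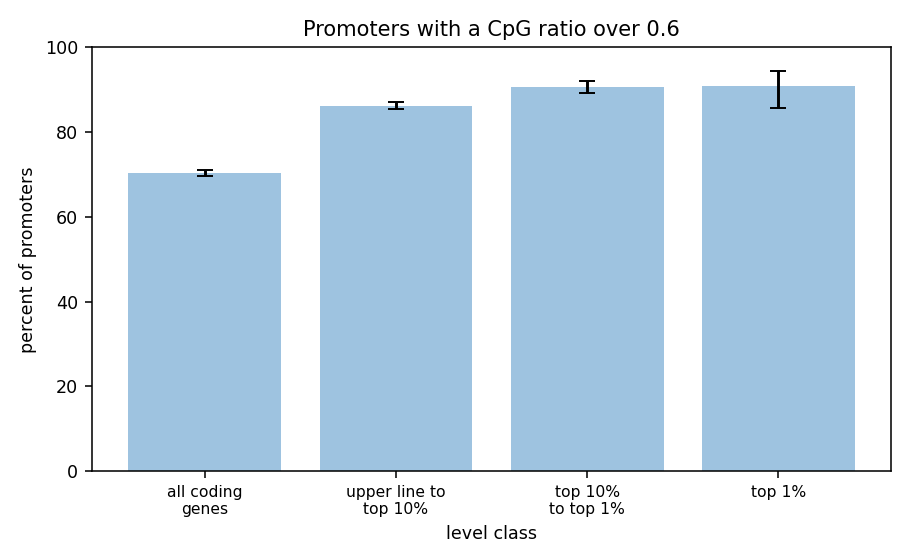
Percent of RefSeq promoters with a CpG ratio over 0.6 (vertical axis) for all measured protein-coding genes and for 3 classes of level (horizontal axis); whiskers are Wilson 95% intervals for counting error. The share is 70.4% over all coding genes and 86.3%, 90.7% and 91.0% in the classes in order of level.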

How the data were processed

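RNA was isolated with Qiagen RNeasy and biotin-labelled by the Affymetrix one-cycle method, per the labels' protocols. The values are log2 RMA levels as deposited, and RMA is named in the submitters' processing notes with no software version. RMA gives all arrays a common distribution. The table held 54675 probe sets, of which 62 controls were left out. Of the other 54613, 41091 had 1 gene in the platform annotation, 1801 several and 11721 none, and only the first were named. Symbols were checked by Entrez identifier against RefSeq, GRCh38.p14 (41037 matched, 0 changed).

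For each gene the brightest probe set by its mean over the 3 arrays was taken, in Python 3.11.15 with pandas 2.3.3, numpy 2.4.6 and scipy 1.17.1. Mean, SD, percentile and counts above the 2 lines were computed. The choice of probe set, the rank order of means, the floor with its calls and the promoter letters were tested on simulated data. The SD and the upper line were not. No test between groups was run, and precision is limited by the 3 arrays.

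The 40 lists (860 of 976 entries measured; 849 genes) and the members were chosen with earlier results of these data known. Genes named are list members, the 25 with the highest mean and the 12 with the largest SD. The upper line was chosen after seeing the data. Listed genes without a level are not analysed here. Alternatives were the choice of probe set, the floor, the rule on arrays and leaving out each array.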

Additional observations from a re-analysis of the deposited data

How the results depend on the processing

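The number of genes above the floor was 12498 with the probe set chosen over all 12 arrays, 12669 and 11907 with the floor at the 90th and the 99th percentile, 12851 when only the mean had to pass, and 12460 to 12576 without 1 array, and these choices left every list count within 1.5 times its value. Taking the median over the probe sets of a gene gave 10871, and the percentile of 227 of 868 named genes moved by more than 10 points, with the largest fall for ITGB1. The lists that then moved by over 1.5 times were steroid receptors (3), stroma (2), endothelium (2), smooth muscle (2) and other tissues (4). Without probe sets ending in _x_at or _s_at, which can read several genes or transcripts, only 17098 genes were left, so fewer members could pass. Of these genes 9398 (55%) were above the floor. The lists that moved by over 1.5 times are given with the members still measured. Counts were 3 of 6 for steroid receptors, 14 of 23 for nuclear receptors and 11 of 22 for steroid enzymes. The kisspeptin list had 6 of 14, receptor tyrosine kinases 11 of 22, ligands 15 of 29 and simple keratins 3 of 4. Mesenchymal genes had 3 of 12, glycolysis 11 of 17, glycogen 5 of 11, fatty acids 20 of 26 and amino acids 15 of 22. Mismatch repair had 4 of 7, antigen presentation 3 of 13, stroma 1 of 8 and smooth muscle 3 of 6. Other tissues had 5 of 22 and ribosomal proteins 21 of 30. At the upper line, which is higher by construction, the counts that moved as far were 14 for nuclear receptors, 5 for the kisspeptin list, 14 for ligands, 1 for stratified keratins, 9 for integrins, 5 for cilia, 3 for stem cell genes, 7 for interferon, and 1 each for stroma, endothelium, smooth muscle and other tissues. No paired analysis was possible because no result comes from a test between groups. Without detection calls, levels between the lines cannot be told from unspecific signal.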

Other observations

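Several gene families outside the lists were looked at after their values were seen, so their members are described and not counted as support for anything. Of 10 measured genes of the HOXB cluster, homeobox factors of body position, 9 passed the floor and 7 the upper line, with HOXB7 at 11.33 ± 0.14, HOXB8 at 9.86 ± 0.095, HOXB6 at 9.80 ± 0.040 and HOXB3 at 9.36 ± 0.064. Of 9 HOXC genes 4 passed the floor and 0 the upper line, and of 8 HOXD genes 6 and 2.

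The annexins, calcium-dependent membrane binders, passed both lines in 9 of 11 cases, with ANXA2 at 13.69 ± 0.036 and ANXA1 at 12.62 ± 0.077. The S100A proteins, some of which bind annexins, passed the floor in 9 of 15 cases and the upper line in 8. The floor was passed by 63.2% of all genes and the upper line by 46.5%. Members ranged from S100A10, which binds annexin A2, at 13.31 ± 0.023 to S100A8 at 2.999 ± 0.11. IGFBP3 (13.00 ± 0.014) and IGFBP2 (11.71 ± 0.17), which bind insulin-like growth factors, were in the top 3% of genes, unlike IGFBP1. CDH6, a cadherin of renal and Mullerian epithelium, lay at 12.44 ± 0.11. Chemokine ligands were dim, with 3 of 34 above the floor.

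Among FGF ligands FGF18 (11.46 ± 0.11), FGF9 (9.23 ± 0.12) and FGF12 (7.58 ± 0.21) were above the upper line, with 8 of 22 above the floor. Of 7 MAGEA genes, tumour antigens with near-identical copies whose probe sets cannot be fully told apart, 3 passed both lines: MAGEA6 (11.51 ± 0.048), MAGEA12 (8.66 ± 0.019) and MAGEA1 (8.63 ± 0.055). SOX4 lay at 12.07 ± 0.14.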
